A study of Drosophila melanogaster with 51 samples.

Results

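The Bithorax complex is the posterior of the 2 Hox gene clusters of Drosophila melanogaster and holds the genes Ubx, abd-A and Abd-B. Its members here were all regions called open in basal Kc167 cells between the annotated ends of Ubx and Abd-B on chromosome 3R, with 10 kb added on either side. This window, 3R:16646623-16982236 in the dm6 assembly, held 24 of the 16118 regions in the list. Of the 24, 19 lay between the outer ends of Ubx and Abd-B, 4 in the flank beyond the 3′ end of Ubx and 1 in the flank beyond the 5′ end of Abd-B. The rule used positions only, so neither a width nor a level chose any region.

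The assay was ATAC-seq, which reads out where the transposase Tn5 can insert sequencing adapters into exposed DNA. The cells were the Kc167 line, an embryonic line with features of hemocytes (fly blood cells), untransfected and with no copper treatment given in the labels. The list combined 3 such libraries, and a region was kept when it was open in at least 2 of the 3. A further 48 libraries came from 12 stable lines derived from these cells, carrying plasmids for Hox proteins or other factors behind a copper-inducible promoter, and were not analysed here. The list gives positions without a height or a read number, so the reads behind a single region are unknown, no value below has a replicate error, and no test was made. A start site called closed is one where no region was listed, and the number of cells or alleles behind a region is not given by the list. Start sites of 10 of 13 hemocyte marker genes were open (95% Wilson interval 49.7 to 91.8%), against 47.8% of all protein-coding genes, among them srp, ush, Hml and Pxn, whereas He, NimC1 and gcm had none. Of markers for other cell types, elav (neuron), repo (glia), Mef2 (muscle) and vas and nos (germline) were open, and Syt1, nSyb and Mhc were closed.

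Hox genes encode homeodomain transcription factors that give segments their identity along the head to tail axis. Within the Bithorax complex, Ubx acts in the posterior thorax and the first abdominal segment, abd-A in the anterior and middle abdomen and Abd-B in the posterior abdomen and genitalia. Most of the complex does not encode protein. The DNA between the genes holds enhancers grouped into segment-specific domains, which are separated by boundary elements bound by insulator proteins such as CTCF. Polycomb response elements keep the genes silent where they were not activated in the embryo, and Trithorax group proteins keep them active elsewhere. Polycomb proteins are brought to these elements by DNA-binding factors, among them Pho and the GAGA factor. The annotation used here does not mark enhancers, boundaries or response elements, so no region was assigned to a named element.

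The sequences of 5 regions show the kinds of open DNA that the complex held, 1 from inside Ubx, 1 ahead of abd-A, 1 across a start site of Abd-B, and the widest from each of the intervals between the genes. They were read from the RefSeq Release 6 genome on the minus strand, the strand of all 3 genes, and at most 300 bases of each are given, without UTR bases. For Abd-B these are the bases directly upstream of the start site, and for other regions over this length the middle ones. Capitals mark GAGAG (the core bound by the GAGA factor), GCCAT (the core bound by Pho) and AGGNGGC (the core of the CTCF site), each on either strand.
Ubx intron region (3R:16702904-16703203): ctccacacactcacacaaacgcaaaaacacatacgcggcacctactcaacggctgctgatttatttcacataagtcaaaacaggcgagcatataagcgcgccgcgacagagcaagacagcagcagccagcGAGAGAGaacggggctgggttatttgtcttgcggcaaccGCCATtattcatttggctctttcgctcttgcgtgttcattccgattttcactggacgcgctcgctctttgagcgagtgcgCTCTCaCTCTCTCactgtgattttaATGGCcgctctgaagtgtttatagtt
Ubx to abd-A interval, widest region (3R:16798592-16798891): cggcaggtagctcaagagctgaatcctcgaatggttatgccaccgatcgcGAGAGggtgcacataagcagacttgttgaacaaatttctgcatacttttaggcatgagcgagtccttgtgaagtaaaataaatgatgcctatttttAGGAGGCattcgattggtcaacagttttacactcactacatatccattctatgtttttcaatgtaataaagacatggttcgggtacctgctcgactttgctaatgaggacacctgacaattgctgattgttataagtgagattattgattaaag
abd-A upstream region (3R:16830078-16830365): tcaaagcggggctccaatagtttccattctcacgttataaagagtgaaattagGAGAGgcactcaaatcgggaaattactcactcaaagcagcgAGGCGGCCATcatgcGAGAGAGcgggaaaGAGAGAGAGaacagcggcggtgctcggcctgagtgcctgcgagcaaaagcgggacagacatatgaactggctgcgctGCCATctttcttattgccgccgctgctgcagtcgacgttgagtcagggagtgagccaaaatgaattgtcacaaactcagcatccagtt
abd-A to Abd-B interval, widest region (3R:16882473-16882772): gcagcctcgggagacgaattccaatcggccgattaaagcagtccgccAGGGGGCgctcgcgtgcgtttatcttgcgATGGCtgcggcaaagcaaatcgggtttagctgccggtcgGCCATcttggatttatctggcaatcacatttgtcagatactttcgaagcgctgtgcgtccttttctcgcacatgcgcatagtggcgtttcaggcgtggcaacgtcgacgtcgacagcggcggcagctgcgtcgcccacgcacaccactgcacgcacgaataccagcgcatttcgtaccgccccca
Abd-B alternative TSS region (3R:16934243-16934542): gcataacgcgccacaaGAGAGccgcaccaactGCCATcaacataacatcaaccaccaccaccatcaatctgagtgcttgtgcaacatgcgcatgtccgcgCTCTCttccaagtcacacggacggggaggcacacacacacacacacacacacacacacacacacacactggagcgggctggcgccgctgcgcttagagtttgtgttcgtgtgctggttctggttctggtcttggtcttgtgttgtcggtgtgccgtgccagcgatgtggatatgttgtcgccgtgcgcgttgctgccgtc
The abd-A sequence held 6 GAGAG matches, counting overlapping ones, 2 of GCCAT and 1 of AGGNGGC within 288 bases. The Ubx sequence held 5 of GAGAG and 2 of GCCAT, and the Abd-B sequence 2 of GAGAG and 1 of GCCAT. The widest region between Ubx and abd-A had 1 GAGAG and 1 AGGNGGC, and that between abd-A and Abd-B had 2 GCCAT and 1 AGGNGGC without a GAGAG.

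The first question was how much of the complex was open and where. From Ubx to Abd-B, 315614 bp held 19 regions, or 6.02 per 100 kb, against 8.29 per 100 kb from lab to Antp (the Antennapedia complex, the anterior Hox cluster), 11.4 on the whole arm 3R and 11.7 on the 7 arms. The regions covered 2.06% of the Bithorax complex, against 2.56% of the Antennapedia complex and 3.37% of arm 3R. Between these ends the density was lowest in abd-A and Ubx and highest in Abd-B. The 77.8 kb of Ubx held 1 region (1.29 per 100 kb), the 72.8 kb from Ubx to abd-A held 3 (4.12), the 22.8 kb of abd-A held 0, the 97.2 kb from abd-A to Abd-B held 7 (7.2) and the 45.0 kb of Abd-B held 8 (17.8). Among these 8 were 4 regions over coding exons, described below, and without them Abd-B had 4 regions, or 8.88 per 100 kb, and the complex 15, or 4.75. Both Hox clusters thus lay below the density of their arm, and the difference between them was not tested.

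**Figure D1:**
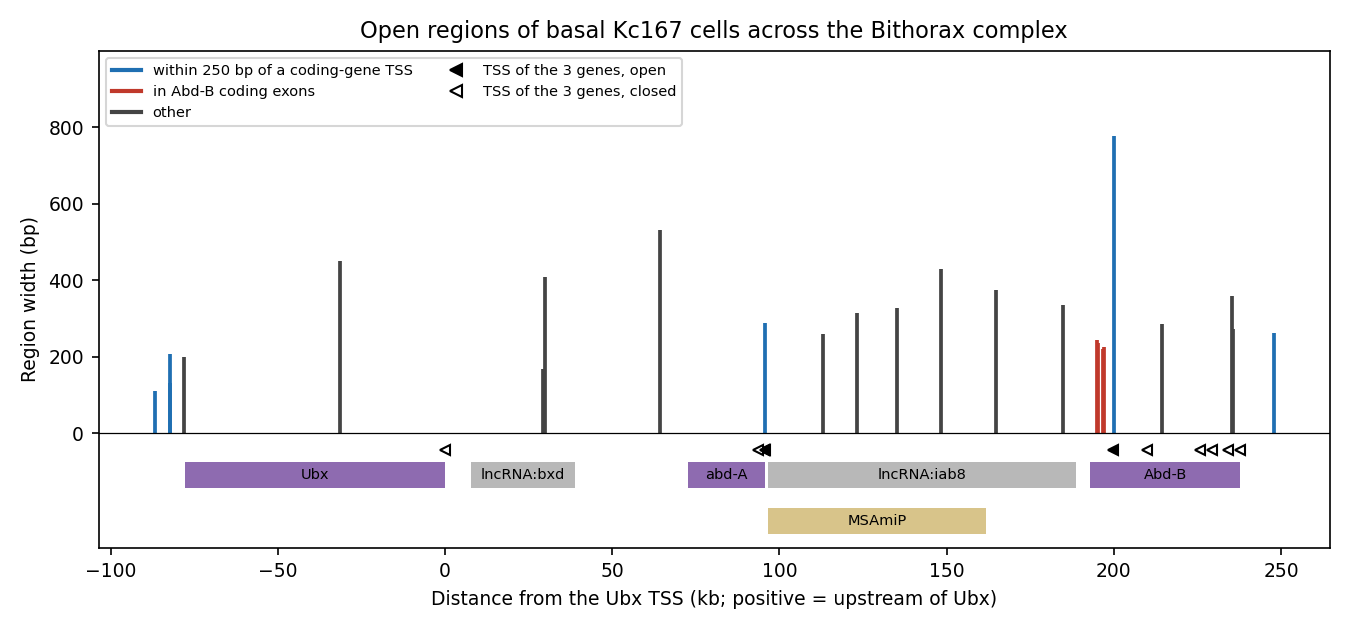
Open regions across the Bithorax complex and its 10 kb flanks. The x axis is the distance from the Ubx start site in kb and the y axis the region width in bp; triangles mark start sites of Ubx, abd-A and Abd-B (filled, open; hollow, closed) and bars show these genes with lncRNA:bxd, lncRNA:iab8 and MSAmiP. Between the outer ends of Ubx and Abd-B, regions are sparsest over Ubx and abd-A and follow each other through lncRNA:iab8, and the widest (778 bp) lies at a start site of Abd-B.

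**Figure D2:**
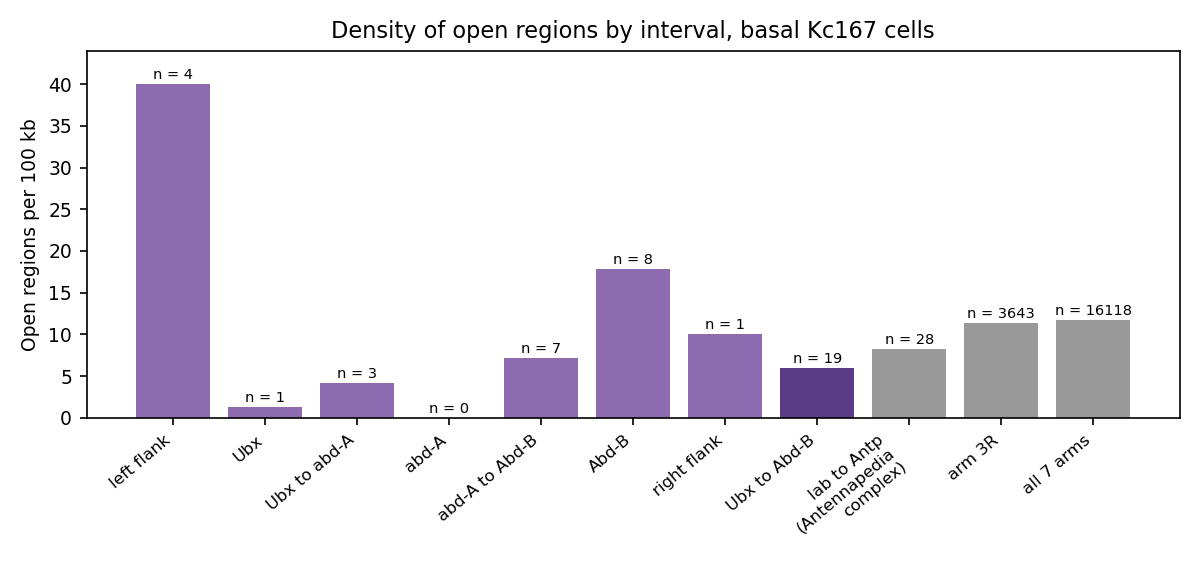
Regions per 100 kb in each interval of the complex (light bars), in the complex as a whole (dark bar) and, for comparison, in the Antennapedia complex, on arm 3R and on the 7 arms (grey bars), with the number of regions above each bar. The bars of the flanks rest on 10 kb each, and abd-A has 0 regions.

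Start sites of the 3 genes were mostly closed. The annotation gives 10 distinct start sites for Ubx, abd-A and Abd-B, and 2 of them (20.0%, 95% Wilson interval 5.67 to 51.0%) had a region within 250 bp. Among all 19275 start sites of protein-coding genes the share was 46.0%, and among the 9 start sites of the other Hox genes 6 were open (66.7%, 35.4 to 87.9%). Counted by gene, abd-A and Abd-B had an open start site and Ubx did not, whereas 47.8% of the 13968 protein-coding genes had at least 1. The Wilson intervals cover counting error only, and start sites of 1 gene are not independent of each other. The sequence around them could be mapped, since the 50-base stretches starting within 250 bp of each occurred once on the 7 arms.

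Ubx encodes the Hox protein that gives the haltere its identity, and its 6 transcripts share 1 start site (3R:16734426). The nearest region to it began 29330 bp upstream, inside the noncoding gene lncRNA:bxd. The single region inside Ubx was 450 bp wide (3R:16702829-16703278), wider than most of the list with 82.7% of all regions no wider. It lay in an intron of all 6 transcripts, 31373 bp downstream of the start site by its midpoint. No other gene start lay near it, the closest being that of asRNA:PS4, an antisense RNA within Ubx, 16849 bp away. Over its whole length this region had 9 GAGAG and 3 GCCAT matches.

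abd-A encodes the Hox protein of the abdominal segments between the domains of Ubx and Abd-B, and had 3 start sites. The region ahead of it (3R:16830078-16830365, 288 bp) ended 29 bp upstream of the outermost start site (3R:16830049, transcript RD). It stayed 326 bp from the second (3R:16829752, transcripts RA and RC) and 1973 bp from the third (3R:16828105, transcript RB). No region touched the 22836 bp between the annotated ends of abd-A. In the 200 bp around its midpoint, this upstream region had 6 GAGAG matches, a count reached in the complex only by the pair of regions inside lncRNA:bxd.

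Abd-B encodes the most posterior Hox protein and has 6 start sites, which give long and short protein forms. The innermost (3R:16934242, transcripts RB and RH) lay inside a region of 778 bp (3R:16934170-16934947), the widest of the complex, and 96.8% of all regions were no wider. It reached 705 bp upstream of the start site and 72 bp downstream. It also held a CA repeat, with 20 overlapping matches to GTGTGT on either strand over its whole length. The other 5 start sites were closed. The one used by 4 transcripts (3R:16944273) had its nearest region 4325 bp upstream, the next ones outward (3R:16960281 and 3R:16963641) had theirs 9231 and 5871 bp upstream, and the outer ones (3R:16968574 and 3R:16972236) lay 938 bp downstream and 1925 bp upstream of the nearest regions. Those nearest regions were a pair of 358 and 273 bp, 169 bp apart, in the long intron of transcript RE (3R:16969512-16969869 and 3R:16970039-16970311). A further intronic region of 286 bp (3R:16948598-16948883) had 5 GCCAT and 3 GAGAG matches around its midpoint, the highest GCCAT count among the 19.

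The other Hox genes gave a different pattern of start sites. In the Antennapedia complex, lab, pb, Dfd, Scr and Antp each had at least 1 open start site, with regions of 291 bp at lab, 393 bp at pb, 430 bp at Dfd, 216 and 529 bp at the start sites of Scr and 268 bp at the inner start site of Antp. Scr was the only one of the 8 Hox genes with more than 1 start site and all of them open. No difference between the clusters was tested.

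Regions in coding sequence were found only in Abd-B among the 3 genes. By midpoint and outside start site windows, 4 of the 24 regions (16.7%, Wilson interval 6.68 to 35.9%) lay in coding sequence, against 3.56% of all regions. The midpoint of the 130-bp region at CG14907, in the flank, also lay in coding sequence but within a start site window. All 4 lay within 2247 bp in the 3′ part of Abd-B, and each lay over 1 exon. Such close regions of 1 gene are not independent of each other, which the Wilson interval does not cover. The 4 regions are shown because their ends followed the coding parts of the exons. The letters below run from the 5′ to the 3′ end of each region on the strand of Abd-B, with the same capitals as above, and leave out bases that any transcript has in a UTR.
Abd-B exon 4 region (3R:16931395-16931605): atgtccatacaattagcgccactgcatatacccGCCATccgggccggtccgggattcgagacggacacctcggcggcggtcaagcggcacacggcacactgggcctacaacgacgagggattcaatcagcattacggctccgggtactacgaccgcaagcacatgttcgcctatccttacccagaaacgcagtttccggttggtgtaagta
Abd-B exon 5 region (3R:16931107-16931325): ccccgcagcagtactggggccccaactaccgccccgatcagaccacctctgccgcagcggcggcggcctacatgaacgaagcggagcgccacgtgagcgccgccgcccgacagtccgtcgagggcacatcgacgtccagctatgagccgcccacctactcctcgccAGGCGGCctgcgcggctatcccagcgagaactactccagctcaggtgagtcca
Abd-B exon 6 region (3R:16929634-16929868): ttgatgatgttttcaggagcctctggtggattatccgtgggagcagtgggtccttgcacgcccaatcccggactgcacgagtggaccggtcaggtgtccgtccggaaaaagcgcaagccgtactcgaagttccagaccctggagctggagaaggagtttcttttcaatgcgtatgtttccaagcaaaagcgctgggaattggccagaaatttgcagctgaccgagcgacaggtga
Abd-B exon 7 region (3R:16929389-16929615): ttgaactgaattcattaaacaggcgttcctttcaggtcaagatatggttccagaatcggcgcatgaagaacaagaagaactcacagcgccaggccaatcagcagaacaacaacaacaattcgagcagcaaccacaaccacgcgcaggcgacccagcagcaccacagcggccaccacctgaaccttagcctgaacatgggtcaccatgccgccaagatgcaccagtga
The first of these sequences opens with the start codon of the short protein form, and the last ends with the stop codon.

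Each of these regions had the outline of the coding part of 1 exon. In transcript RA, which encodes the short form, the coding parts of exons 4, 5, 6 and 7 measure 204, 202, 215 and 192 bp. The regions over them measured 224 bp (exon 4), 219 bp (exon 5), 235 bp (exon 6) and 244 bp (exon 7). At their 5′ ends they ran past the coding part by 13 bp (exon 4), 8 bp (exon 5), 16 bp (exon 6) and 35 bp (exon 7). The overhang at the 3′ ends was 7 bp (exon 4), 9 bp (exon 5), 4 bp (exon 6) and 17 bp (exon 7). Exon 7 is 1914 bp long in RA, and there the 3′ end of the region followed the end of the coding part, not that of the exon. Together the regions covered all 813 coding bases of the short form, which 6 of the 10 Abd-B transcripts encode. The introns between these exons were open only at their edges. Of the 1263 bp between exons 5 and 6 the list covered 25 bp, of the 84 bp between exons 4 and 5 it covered 15 bp, and of the 57 bp between exons 6 and 7 it covered 39 bp, leaving 18 bp without a region. In the long form of transcripts RB and RH 55.4% of the 1482 coding bases were open, all in these same exons, and the coding part of their first exon had no region.

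**Figure D3:**
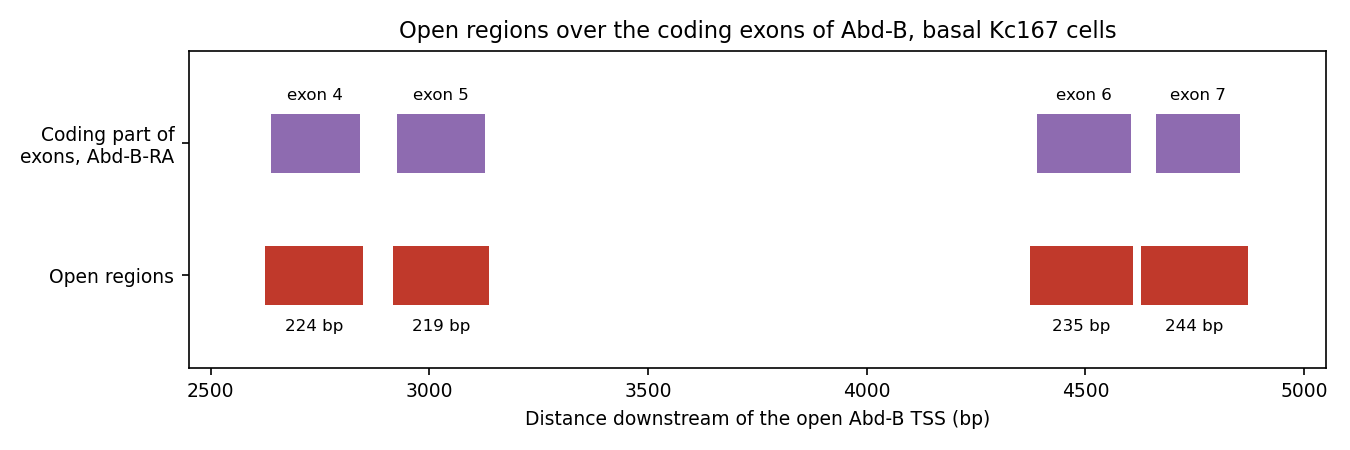
Coding parts of exons 4 to 7 of Abd-B transcript RA (upper row) and the 4 open regions over them (lower row), by distance downstream of the open Abd-B start site in bp. Each region runs 4 to 35 bp past both ends of the coding part of its exon. The introns between the exons are left without a region except at their edges.

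Few regions elsewhere had this form. Over the 7 arms 85 regions, 0.527% of the list, had both ends within 40 bp of the ends of 1 coding segment. These were 4 of the 19 of the complex and 81 of the 16099 outside it (0.503%). This measure was chosen after the positions had been seen. Of 13968 protein-coding genes, 530 (3.79%) had at least 1 region in coding sequence and 40 (0.286%) at least 2. Abd-B was the only 1 with 4 or more (0.00716%), a cut that is its own count. The study cloned coding sequences of 11 genes into expression plasmids (the 8 Hox genes, hth, exd and gcm), and in the 10 others no coding base was open. The stable lines of the study include lines that carry an Abd-B plasmid, while the labels give the basal cells as the standard line. For binding regions from ChIP-seq the methods state that those over exons present in the plasmid were removed, and no such step is stated for the ATAC-seq list. Whether plasmid DNA contributed to the 4 regions was not tested.

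The interval from Ubx to abd-A, which holds control DNA of both genes, had 3 regions, none at a start site. A pair of 167 and 408 bp lay 58 bp apart (3R:16763756-16763922 and 3R:16763981-16764388) in an intron of lncRNA:bxd, a noncoding RNA gene upstream of Ubx. Their midpoints were 29413 and 29758 bp upstream of the Ubx start site. Each had 6 GAGAG matches around its midpoint, and the wider one also had 3 of GCCAT and 1 AGATAAG, the site of GATA factors such as the hemocyte factor Srp. The third region, 530 bp wide (3R:16798477-16799006), lay between annotated genes, 1594 bp from the start of lncRNA:CR45750. It was 64315 bp upstream of the Ubx start site and had the lowest GC content of the 19, 38.0%, against a median of 53.0% in the complex and 44.5% over all regions. Start sites of the coding genes CG31275 and Glut3, a glucose transporter family member, in this interval were closed.

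The interval from abd-A to Abd-B is largely taken up by lncRNA:iab8, a noncoding RNA gene of 92116 bp that hosts mir-iab-8. Besides the region ahead of abd-A, it held 6 regions, all in introns of lncRNA:iab8, and 4 of them also in introns of MSAmiP, which encodes a micropeptide. Their midpoints lay 17348, 27696, 39452, 52573, 69089 and 89133 bp upstream of the outermost abd-A start site, and their widths in this order were 259, 314, 327, 428, 373 and 334 bp. Spacing was even compared with the rest of the complex, with 10.1 to 19.7 kb between neighbours. All 6 had a GAGAG or a GCCAT match around the midpoint. The region of 327 bp (3R:16869338-16869664) had 4 of GCCAT and 1 of GAGAG, that of 314 bp (3R:16857589-16857902) had 5 of GAGAG and 1 of GCCAT, and that of 428 bp (3R:16882409-16882836) had 2 of GCCAT only. None was at any of the 8 start sites of lncRNA:iab8, the nearest being 508 bp away. The hairpins of mir-iab-4 and mir-iab-8, which lie on opposite strands of the same DNA and act on Hox transcripts, were 1314 and 1247 bp from the nearest region by their start sites.

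Other start sites within the complex were closed as well. Between the ends of Ubx and Abd-B the annotation has 3 further coding genes (CG31275, Glut3 and MSAmiP) and 11 noncoding genes, and none of their start sites had a region within 250 bp. This was 0 of 22 for the noncoding genes (upper bound of the Wilson interval 14.9%), some of which share start sites or DNA, against 16.4% of the 2968 start sites of noncoding RNA genes on the 7 arms. For the coding genes it was 0 of 3 (upper bound 56.1%), too few to be set against the 46.0% of all coding start sites. The noncoding genes were asRNA:PS4, lncRNA:bxd, lncRNA:CR44945, lncRNA:CR45750, lncRNA:TS16, lncRNA:iab8, lncRNA:iab4, mir-iab-8, mir-iab-4, lncRNA:CR43617 and lncRNA:CR46267. Just outside the complex, 3 of 8 coding genes were open. CCT3, a chaperonin subunit, had a narrow region across its start (3R:16647548-16647658), CG14907 had 130 and 207 bp regions, and AhcyL2, a relative of adenosylhomocysteinase, had 261 bp. CG10324, Mettl4, modSP, VhaM9.7-d and Actn3 were closed, although a region of 198 bp lay 573 bp upstream of modSP, a serine protease of the Toll pathway, close to the 3′ end of Ubx. In all, 6 of the 24 regions (25.0%) were at a start site of a coding gene, against 53.1% of the list. Inside the complex it was 2 of 19 (10.5%, 2.94 to 31.4%), with 13 of the 19 in introns.

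Long stretches between regions were common in the complex. Of the 20 gaps between neighbouring regions that overlapped it, 14 were at least 10 kb long. This compared with 12 of 29 from lab to Antp (41.4%) and 18.6% of all 16111 gaps. The gaps at both ends, which reach into the flanks, were counted, and that at the Abd-B end (11.8 kb) lay mostly beyond the gene. The median gap was 12268 bp in the complex, 7136 bp from lab to Antp and 1635 bp over the 7 arms. The longest, 60.5 kb from the Ubx intron to lncRNA:bxd, spans the Ubx start site, and 2.07% of all gaps were as long or longer. The next, 46.4 kb over the 3′ part of Ubx, was matched or exceeded by 3.28%. Gaps of 34.1 and 31.1 kb flanked the 530-bp region, and the second of these contained the whole of abd-A. Part of the longest gap could not have been called, since the authors kept reads with a single alignment. Of its 50-base stretches 89.9% occurred once on the 7 arms, the rest being mostly a diver transposon of which 0.766% did. In the other intervals the share was 99.9% or above, except for the interval from Ubx to abd-A, which holds the transposon, at 91.6%.

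**Figure D4:**
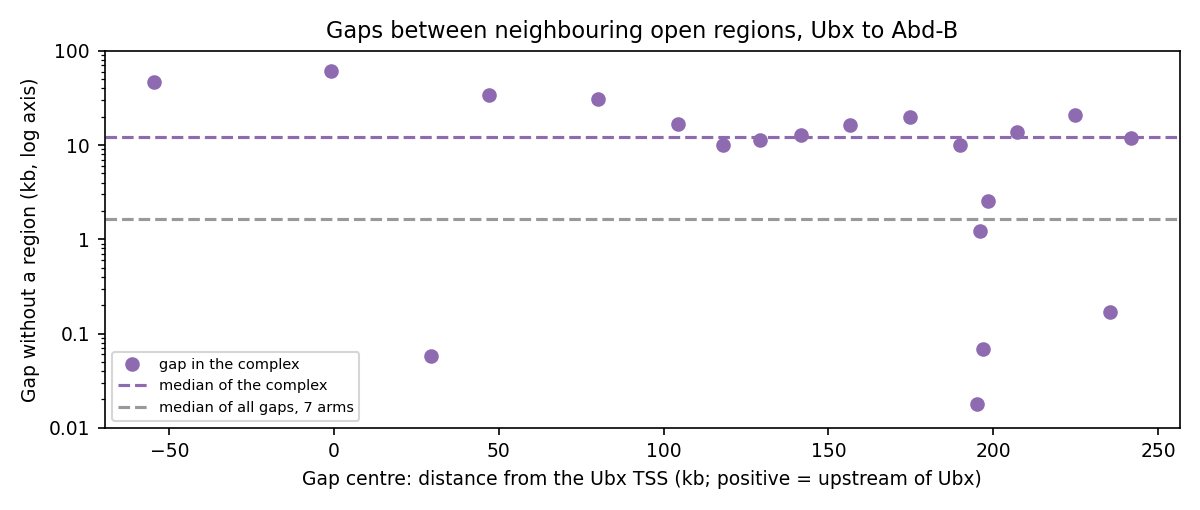
Length of each gap between neighbouring open regions from Ubx to Abd-B (points), on a log axis in kb, by the distance of its centre from the Ubx start site in kb. The gaps at both ends reach into the flanks. Dashed lines give the median gap of the complex (12268 bp) and of the 7 arms (1635 bp), and the longest gap, 60.5 kb, lies over the Ubx start site.

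Regions of the complex were of middling to large width. The 19 regions had a median width of 314 bp, with lower and upper quartiles at 251.5 and 390.5 bp. The median was 262.5 bp from lab to Antp and 233 bp over the list, where the lower and upper quartiles lay at 172 and 370 bp. More than 300 bp were reached by 10 of 19 (52.6%), against 34.6% of all regions. For the 13 in introns or between genes and away from start sites the median was 334 bp, against 271 bp for the 6550 regions of the list in such places.

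The 200 bp around each midpoint were searched for 12 short motifs, each read on either strand. GAGAG was present in 12 of 19 regions (63.2%, Wilson interval 41.0 to 80.9%), against 10 of 28 in the Antennapedia complex (35.7%) and 33.9% of the list. GCCAT was also present in 12 of 19 (63.2%), against 18 of 28 from lab to Antp (64.3%) and 31.4% of the list. Both occurred in 8 of 19 regions (42.1%), against 7 of 28 from lab to Antp (25.0%) and 9.94% of the list. Every one of the 13 regions in introns or between genes had at least 1 of these motifs, as did 59.9% of the 6550 such regions of the list. Base composition moves with these counts. Among all regions with a GC content of 48 to 58%, a band around the median of the 19 (53.0%), GAGAG was in 46.2%, GCCAT in 34.1% and both in 14.6%. The 13 regions in introns or between genes had a lower median GC content, 47.0%, against 44.5% for the 6550. Of these 13, 10 held GAGAG (76.9%) and 9 held GCCAT (69.2%), against 38.5% and 33.5% of the 6550. The part of base composition in the difference was not tested. Among the 4 regions over Abd-B exons, GAGAG was in none and GCCAT in 1.

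AGGNGGC was found in 5 of 19 regions (26.3%, 11.8 to 48.8%), against 2 of 28 from lab to Antp (7.14%) and 8.31% of the list. These were the 530-bp region between Ubx and abd-A, the one ahead of abd-A, the last in lncRNA:iab8 (3R:16919016-16919349), the one over exon 5 of Abd-B and one in the outer part of Abd-B (3R:16969512-16969869). The part of base composition in the AGGNGGC difference was not tested. GTGTGT, bound by Combgap, was found in 1 of 19 (5.26%, 0.935 to 24.6%), against 10 of 28 from lab to Antp and 23.7% of the list. For sites of Hox proteins the intervals included the share of the list. TAATTA (Antp-class homeodomain) and TTTATNG (Abd-B class) were in 0 of 19 (upper bound of the Wilson interval 16.8%), against 7.39% and 16.1% of the list, and the Exd-Hox site TGATTNAT in 1, the Ubx intron region, against 3.59%. CCAATAAG (ELBA), CAGGTAG (Zelda), TATCGATA (DRE) and GGTCACAC (M1BP motif 1) were in 0 of 19. In the list they were in 0.552% (ELBA), 0.614% (Zelda), 5.16% (DRE) and 5.08% (M1BP), so that 19 regions could hardly show a lower share. AGATAAG was in 1 of 19 (5.26%), against 3.34%.

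**Figure D5:**
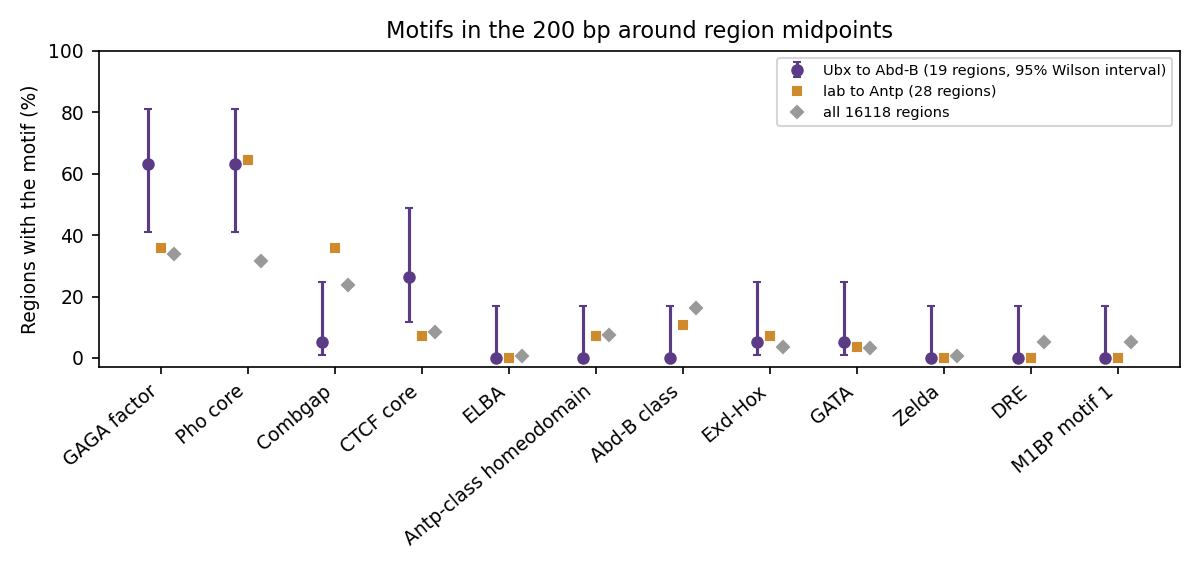
Share of regions, in percent, with each motif in the 200 bp around the midpoint, for Ubx to Abd-B (circles with 95% Wilson intervals, 19 regions), lab to Antp (squares, 28 regions) and the whole list (diamonds). The GAGA factor core (63.2%) and the CTCF core (26.3%) have intervals above the value of the list, as has the Pho core (63.2%), which is as frequent from lab to Antp (64.3%). The GAGA factor interval (41.0 to 80.9%) includes the 46.2% found among regions of the list with a GC content of 48 to 58%. The median GC content was 53.0% for the 19 regions and 47.0% for the 13 in introns or between genes.

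Genes for the proteins that act on the complex were mostly open at a start site. All 21 Polycomb group genes listed were open (lower bound of the 95% Wilson interval 84.5%), against 47.8% of protein-coding genes, with the widest regions at ph-d (937 bp), Psc (837 bp) and ph-p (757 bp), which encode subunits of Polycomb repressive complex 1. Of 14 Trithorax group genes 13 were open, the widest being at fs(1)h (593 bp), osa (536 bp) and ash2 (533 bp), and the Mediator gene kto was closed. Boundary factor genes were open in 13 of 17 cases, with Clamp (858 bp), su(Hw) (428 bp) and BEAF-32 (397 bp) widest. Elba1, Elba2 and Elba3, subunits of an early embryonic insulator complex, and Ibf2 were closed. Of 12 embryonic regulators of Hox expression 8 were open, widest at eve (887 bp), h (843 bp) and en (658 bp), while ftz, gt, hb and tll were closed. These lists were written from general knowledge, an open start site is not a measure of expression, and the shares were not tested.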

How the data were processed

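The authors aligned ATAC-seq reads to dm6 without its scaffolds with Bowtie 1.2.2, keeping reads with a single alignment, and moved them by 4 and 5 bp to the centre of the transposase contact. They called regions per replicate with MACS2 2.1.1.20160309 (shift -45, extension 100, q 0.01) and deposited those present in 2 or more of the 3 basal replicates, joined, as start and end positions without score or signal. The study lists total and mapped reads per library, which were not used here, and the region list carries no read numbers. The 48 libraries of stable lines were not used here.

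Positions, counted from 1, were compared with Ensembl release 115 genes (BDGP6, version 54) and the RefSeq Release 6 genome, whose arm lengths all regions fit. The symbols calypso, h and nos were matched as caly, hry and nanos. A region was at a start site when at least 1 of its bases lay within 250 bp of it. Classes went by midpoint, where a start site window took precedence over coding sequence, coding sequence over UTRs, and exons over introns. Overlap, distance and motif steps were tested on simulated data (Python 3.11.15). The members, gene lists and motifs were chosen with earlier results of these data known. Named genes were the 3 members, other genes overlapping the window, the other Hox genes, cloned genes with a region in coding sequence, and of each regulator list up to 4 closed genes and the 3 with the widest region.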

Additional observations from a re-analysis of the deposited data

How the results depend on the processing

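No paired analysis was possible because the list carries no replicate numbers, and with 1 combined list no replicate could be left out. Of 75 alternative values for 22 results, 60 stayed within 1.5 times the value given above and 15 did not. With 50 kb flanks the window held 44 regions. Merging regions under 200 bp apart left 5 in Abd-B, and leaving out those in coding sequence, an alternative chosen after seeing the data, left 4. The counts of rarer motifs moved with the window. Over whole regions GTGTGT was in 3, AGGNGGC in 8, CCAATAAG in 1, TTTATNG in 2 and CAGGTAG in 1 of 19. In 400 bp around the midpoint GTGTGT was in 3, AGGNGGC in 9, CCAATAAG in 1, TAATTA in 1, TTTATNG in 5, TGATTNAT in 2 and CAGGTAG in 1. Over all regions of the list the shares over whole regions and in 400 bp were 31.4% and 35.8% for GTGTGT, 11.9% and 14.4% for AGGNGGC, 0.912% and 1.23% for CCAATAAG, 10.3% and 20.0% for TAATTA, 22.0% and 32.1% for TTTATNG, 5.48% and 8.57% for TGATTNAT, and 0.955% and 1.56% for CAGGTAG. Counts of start sites, coding regions, GAGAG and GCCAT and the median width were among the values that stayed. Some of these reached the limit of 1.5 times. Open start sites of the 3 genes went from 2 to 3 with a window of 500 bp. Regions at a coding start site went from 6 to 4 when only regions of at least 200 bp were kept. Regions in coding sequence went from 4 to 6 when any overlap was counted.

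The list holds no read numbers, so a region near the authors' threshold cannot be told from a strong one or a closed start site from one just under it. Sequence present in several copies could not be called.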
